A study of Mus musculus with 10 samples.

Results

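Hepatic lipid droplet and triglyceride turnover genes were examined in 5 wild-type and 5 Ndrg3 LKO mouse livers, by RNA sequencing with 1 library per liver. The set holds 10 genes, taken by symbol from the 24052 symbols listed: *Plin2*, *Plin4*, *Plin5*, *Cidea*, *Cidec*, *Pnpla2*, *Pnpla3*, *Mogat1*, *Dgat1* and *Dgat2*. Ndrg3 LKO mice lack exon 4 of *Ndrg3* in cells that express Cre recombinase under the albumin promoter, which is active in hepatocytes. Which other cells of the liver keep the gene was not tested. Littermates labelled wild-type were the controls. The final mating described in the methods, of *Ndrg3* f/+; *Alb*-Cre with *Ndrg3* f/f mice, gives every pup at least 1 floxed allele, and the exact genotype of the controls is not given in the sources used here. The labels name a C57BL/6 background, the methods describe backcrossing of the line to C57BL/6N, and all mice were fed ad libitum, and their age is given as 8 to 10 weeks in one place and 10 to 12 weeks in another.

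Lipid droplets store triglyceride under a phospholipid layer that carries coat proteins. Perilipins (PLIN proteins) coat the droplet and restrict or organise lipolysis, and CIDE proteins help droplets to exchange lipid and grow. Triglyceride is built up by acyltransferases, the last of which are DGAT1 and DGAT2, and broken down in steps that begin with ATGL, the product of *Pnpla2*. In the liver these droplets buffer fatty acids between food intake, oxidation and the secretion of lipoproteins.

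Of the 10 genes, 7 passed the filter on low values (a CPM, or counts per 1000000 counts of the library, of 1 or more in no fewer than 5 livers). Among these 7, 3 differed between the groups at an adjusted p under 0.05 in edgeR's quasi-likelihood test. *Dgat1* was higher and *Dgat2* and *Plin4* were lower in Ndrg3 LKO livers. The share called over all 11208 genes tested was 48.6%, with 25.6% called higher and 23.0% called lower, so that 3 of 7 is a share like that of genes in general. The median log2 fold change of the 7 genes was -0.19, against 0.03 for all genes tested. The 3 genes below the filter, *Cidea*, *Pnpla3* and *Mogat1*, were compared by their counts.

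*Plin4* and *Plin5* lie next to each other on the minus strand of chromosome 17, and 1 of them was called and the other was not. On mm9, the build of the files, *Plin4* spans 56240014 to 56249225 and *Plin5* spans 56251024 to 56257019, with 1798 bp between them. In the annotation, 6 bp of an exon of *Plin4* overlap an exon of *Hdgfrp2* on the opposite strand, and *Hdgfrp2* itself had a log2 fold change of -0.15 ± 0.17 (SE, adjusted p = 0.50). The upstream sequences of both perilipin genes are shown so that their start regions can be compared. They are the 250 bases before the RefSeq start, read 5′ to 3′ on the minus strand of GRCm38.p6, at chr17:56109783-56110032 for *Plin4* and chr17:56117549-56117798 for *Plin5* (the upstream of its 2 listed starts). Capitals mark CCAAT (or ATTGG, its reverse complement), GGGCGG and AGGTCA.

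*Plin4*: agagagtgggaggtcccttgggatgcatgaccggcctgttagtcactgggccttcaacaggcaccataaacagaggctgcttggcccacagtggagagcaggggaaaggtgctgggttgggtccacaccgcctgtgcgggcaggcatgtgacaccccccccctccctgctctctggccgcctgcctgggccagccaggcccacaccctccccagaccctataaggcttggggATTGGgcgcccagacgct

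*Plin5*: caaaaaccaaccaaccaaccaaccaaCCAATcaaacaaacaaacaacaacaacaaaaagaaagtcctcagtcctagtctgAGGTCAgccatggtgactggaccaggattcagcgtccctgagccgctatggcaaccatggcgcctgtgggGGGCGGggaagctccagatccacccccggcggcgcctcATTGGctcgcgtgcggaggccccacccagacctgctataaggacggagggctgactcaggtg

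AGGTCA is the half-site to which many nuclear receptors bind, including the PPAR family. It was found at position -170 of the *Plin5* window, counted back from the start, and not in the *Plin4* window. Windows of 7 of the 10 genes were compared (9 windows). Windows on chromosome 18, where *Cidea* lies, were not taken, and none was found for *Dgat1* or *Dgat2*. On either strand AGGTCA occurred in the windows of *Plin2* and *Plin5* and in 14.0% of 32851 windows of all genes. The CCAAT box was present in the windows of *Plin2*, *Plin4*, *Plin5* and *Pnpla3* and in 33.8% of all windows. The GC box GGGCGG was present in those of *Plin5*, *Pnpla2* and *Pnpla3* and in 32.7% of all. The full DR1 element of PPAR receptors, a direct repeat of the half-site with 1 base between, was in none of the 9 windows and in 0.0335% of all, the E-box CACGTG in none and 6.02%, and TATAAA in none and 12.4%. These letters describe the windows and were not tested for binding.

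The other genes lie apart from each other on mm9. *Plin2* spans 86294290 to 86315964 on chromosome 4, and *Cidec* spans 113374628 to 113385754 on chromosome 6. *Pnpla2* (148641097 to 148646642) and *Dgat2* (106302173 to 106331223) are both on chromosome 7. *Pnpla3* (83998246 to 84019942) and *Dgat1* (76332445 to 76342381) are both on chromosome 15. *Mogat1* spans 78507566 to 78534748 on chromosome 1 and shares 108 exonic bp with a gene on the opposite strand, and *Cidea*, on chromosome 18, shares 20 exonic bp with another. The counts were made over whole genes, and the strand setting is not given in the sources used here.

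The libraries held between 20872262 and 30450057 counts, at which 3 counts, the smallest signal taken as detected, correspond to between 0.0727 and 0.179 CPM after TMM normalization, edgeR's scaling of library sizes. The targeted gene was lower in every Ndrg3 LKO liver: *Ndrg3* was at 15.9 to 21.9 CPM in wild-type and at 7.07 to 9.15 CPM in Ndrg3 LKO livers (log2 fold change -1.20 ± 0.13, SE, adjusted p = 3.9e-05). Hepatocyte markers summed to between 124500 and 167600 CPM in wild-type livers. They summed to between 35430 and 43870 CPM in 4 Ndrg3 LKO livers, but to 146900 CPM in Ndrg3 LKO replicate 5. A second value without that liver is therefore given beside part of the results. In the hepatocyte list of 8 genes, 5 were called lower and 1 higher, and *Ass1* was under 2 CPM in all 10 livers. All 7 macrophage, 5 of 6 stellate cell and 4 of 5 endothelial markers were called higher, against 25.6% of all genes tested. Of 5 cholangiocyte markers 1 was called higher and 1 lower, and none of the lymphocyte markers passed the filter. The part of these cell types in the differences below was not tested, and in bulk tissue fewer cells of a type and less RNA per cell cannot be told apart. *Adipoq*, a transcript of fat cells, was above 1 CPM in 3 livers, called here the livers that hold adipocyte transcripts. Lower counts of fat cell genes occurred in other livers too, and the genes of skeletal muscle were high in 1 liver. These values are given beside the genes they touch.

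Per kilobase of exon, the 10 transcripts covered a wide range in wild-type livers. *Dgat2*, at a mean of 310.3 CPM per kb (range 294 to 330.3), and *Plin2*, at 279 CPM per kb (89.2 to 431), were the most abundant, and their ranges overlapped. *Plin5* followed at 125 CPM per kb and *Pnpla2* at 51.6 CPM per kb, with ranges apart from each other, although the range of *Plin5* overlapped that of *Plin2*. *Dgat1* (9.66 CPM per kb), *Cidec* (9.52) and *Plin4* (6.73) overlapped in their ranges. *Cidea* (0.373 CPM per kb), *Mogat1* (0.372) and *Pnpla3* (0.0357) were the lowest. In Ndrg3 LKO livers the means per kb were 214 for *Dgat2*, 245 for *Plin2*, 100.1 for *Plin5*, 61.0 for *Pnpla2*, 14.6 for *Dgat1*, 11.2 for *Cidec* and 3.18 for *Plin4*. *Plin2* and *Dgat2* thus changed places as the most abundant of the set by mean, with overlapping ranges in both groups.

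**Figure D1:**
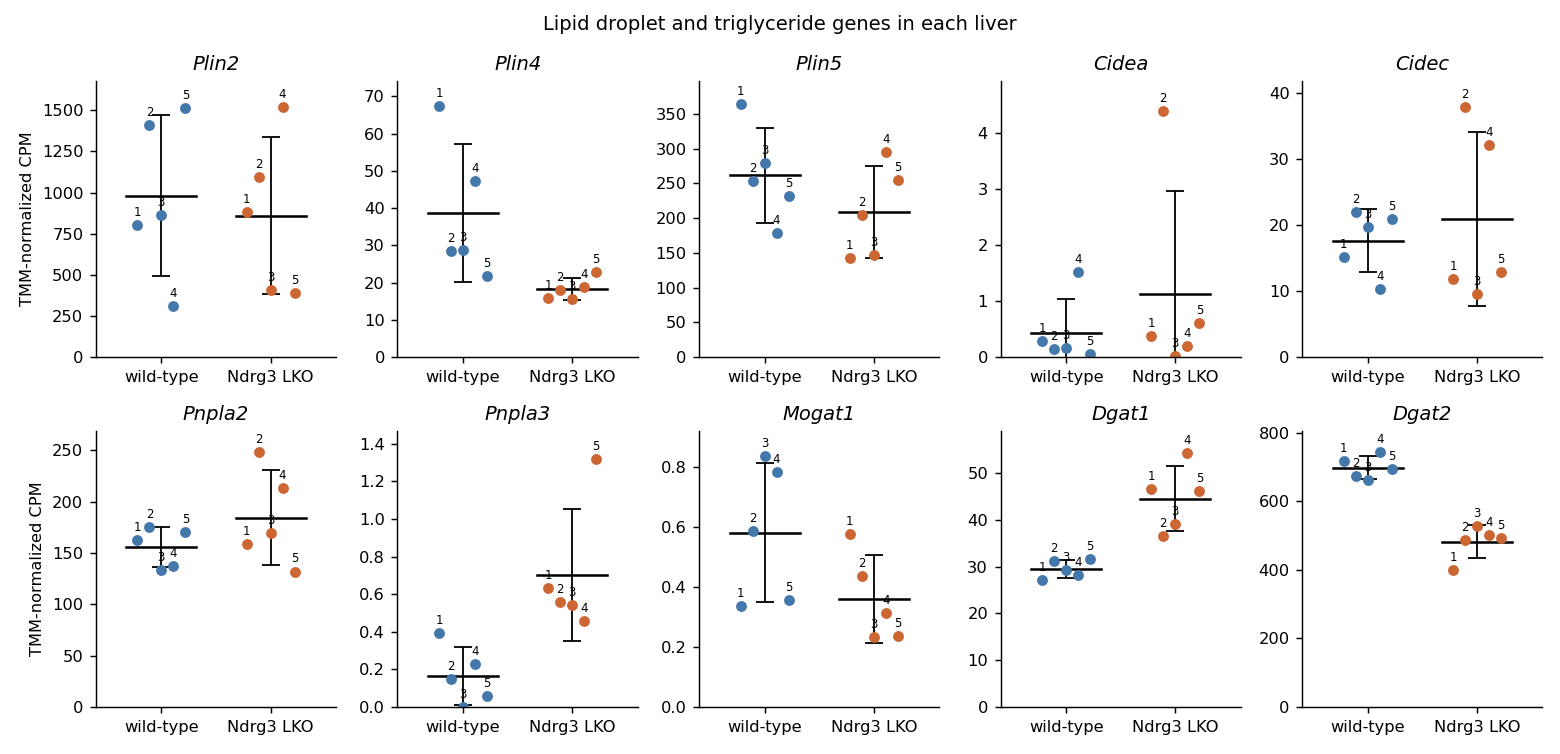
TMM-normalized CPM (vertical axes, each starting at 0) of the 10 genes in the 5 wild-type and 5 Ndrg3 LKO livers. Points are livers labelled with their replicate number, the horizontal line is the group mean and the bars are ± SD (cut at 0). The groups are apart for *Dgat1*, *Dgat2* and *Pnpla3*, while *Plin2* ranges from 313 to 1512 CPM among wild-type livers alone.

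Of the 3 perilipin genes of the set, *Plin4* was the 1 that was called. PLIN4 coats small, newly formed droplets and is best known from fat and muscle. In wild-type replicates 1 to 5, *Plin4* was at 67.3, 28.4, 28.7, 47.3 and 21.9 CPM. In Ndrg3 LKO replicates 1 to 5 it was at 16.0, 18.1, 15.6, 19.0 and 22.9 CPM. The 5 Ndrg3 LKO livers were close together, and all but replicate 5 lay below the lowest wild-type liver. The mean was 38.7 ± 18.6 CPM in wild-type (SD, n = 5) and 18.3 ± 2.92 CPM in Ndrg3 LKO livers (SD, n = 5). *Plin4* fell by 1.08 on the log2 scale (SE 0.27, 95% confidence interval -1.68 to -0.49, adjusted p = 0.0067), and the log2 fold change without Ndrg3 LKO replicate 5 was -1.18 (adjusted p = 0.0043). Wild-type replicates 1 and 4 were the highest. Replicate 1 had *Adipoq* at 0.112 CPM, while replicate 4 is 1 of the livers with adipocyte transcripts. The other such livers, Ndrg3 LKO replicates 1 and 2, had *Plin4* at 16.0 and 18.1 CPM. A link between these transcripts and *Plin4* was not tested. Without the 3 such livers the log2 fold change was -0.94 (adjusted p = 0.078), and on library sizes alone it was -0.58 (adjusted p = 0.082). When the median of all genes under each scaling is subtracted, *Plin4* was at -1.11 with TMM and -1.14 with library sizes. Such values stay close by construction, since a change of scaling moves most genes by a similar amount.

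*Plin2*, the most widespread droplet coat protein of hepatocytes, varied within both groups. It was at 804, 1410, 866, 313 and 1512 CPM in wild-type replicates 1 to 5 and at 882, 1097, 409, 1522 and 391 CPM in Ndrg3 LKO replicates 1 to 5. The highest liver was 4.83 times the lowest among wild-type and 3.89 times among Ndrg3 LKO livers, and the ranges covered each other. The log2 fold change was -0.19 ± 0.45 (SE, adjusted p = 0.75), with a 95% confidence interval from -1.17 to 0.79, so a fall by as much as 1.17 on the log2 scale would be within the error of this comparison. Without Ndrg3 LKO replicate 5 it was -0.02 (adjusted p = 0.98).

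*Plin5*, which links droplets to mitochondria in oxidative tissues, was at 364, 254, 279, 178 and 233 CPM in wild-type and 143, 205, 147, 295 and 255 CPM in Ndrg3 LKO livers. The ranges overlapped, and Ndrg3 LKO replicates 1 and 3 lay below all wild-type livers. The log2 fold change was -0.32 ± 0.24 (SE, 95% confidence interval -0.85 to 0.20, adjusted p = 0.29). Both *Plin4* and *Plin5* are also expressed in skeletal muscle, whose 5 markers summed to 322 CPM in wild-type replicate 5 and to at most 0.969 CPM in the other 9 livers. In that liver *Plin4* was the lowest and *Plin5* the second lowest of the wild-type group. Whether *Plin4* and *Plin5* differ in their response was not tested.

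CIDE genes did not pass the test. *Cidec* encodes the protein that enlarges droplets, chiefly in white fat and in fatty liver. It was at 15.2, 22.0, 19.8, 10.4 and 21.0 CPM in wild-type and at 11.8, 37.9, 9.51, 32.2 and 12.9 CPM in Ndrg3 LKO livers. Ndrg3 LKO replicates 2 and 4 were above every wild-type liver, and replicate 3 was below all of them. The SD was 4.84 CPM in wild-type and 13.2 CPM in Ndrg3 LKO livers. The log2 fold change was 0.24 ± 0.38 (SE, 95% confidence interval -0.59 to 1.08, adjusted p = 0.62), and it was -0.09 without Ndrg3 LKO replicate 2 (adjusted p = 0.85).

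*Cidea*, a droplet protein typical of brown fat, was near the detection floor in most livers. Its counts were 5, 3, 3, 33 and 1 in wild-type and 13, 181, 1, 7 and 13 in Ndrg3 LKO livers, or at most 1.52 and 4.38 CPM. Wild-type replicate 4 and Ndrg3 LKO replicate 2 stood apart as the highest of their groups. The same 2 livers had the most *Adipoq* and *Plin1* within their groups, genes that are characteristic of fat cells. *Adipoq* was at 1.56 CPM in wild-type replicate 4, at 1.81 and 5.01 CPM in Ndrg3 LKO replicates 1 and 2, and at 0.223 CPM or less in the other 7 livers. *Ucp1*, the brown fat uncoupling protein, had 35 counts in wild-type replicate 4, 29 in Ndrg3 LKO replicate 2, 2 in Ndrg3 LKO replicate 1 and 0 in the others. Whether the counts of *Cidea* come from adipose tissue was not tested.

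The difference of the means of log2(CPM + 0.1) for *Cidea* was 0.63 (exact permutation test, 2-sided, p = 0.57). It was -0.12 without Ndrg3 LKO replicate 2 and 0.25 without the 3 livers that hold adipocyte transcripts (exact permutation p = 0.80). The 7 adipocyte markers summed to between 4.99 and 26.0 CPM in wild-type and between 8.72 and 61.6 CPM in Ndrg3 LKO livers. The sum in Ndrg3 LKO replicate 5 was 61.6 CPM, in which *Adipoq*, *Plin1*, *Cfd* and *Retn* were at 0. In the brown adipocyte list of 4 genes, 1 was called higher and 1 lower, and its sum, between 406 and 1151 CPM in wild-type and 44.8 and 164 CPM in Ndrg3 LKO livers, includes genes that liver itself expresses.

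**Figure D2:**
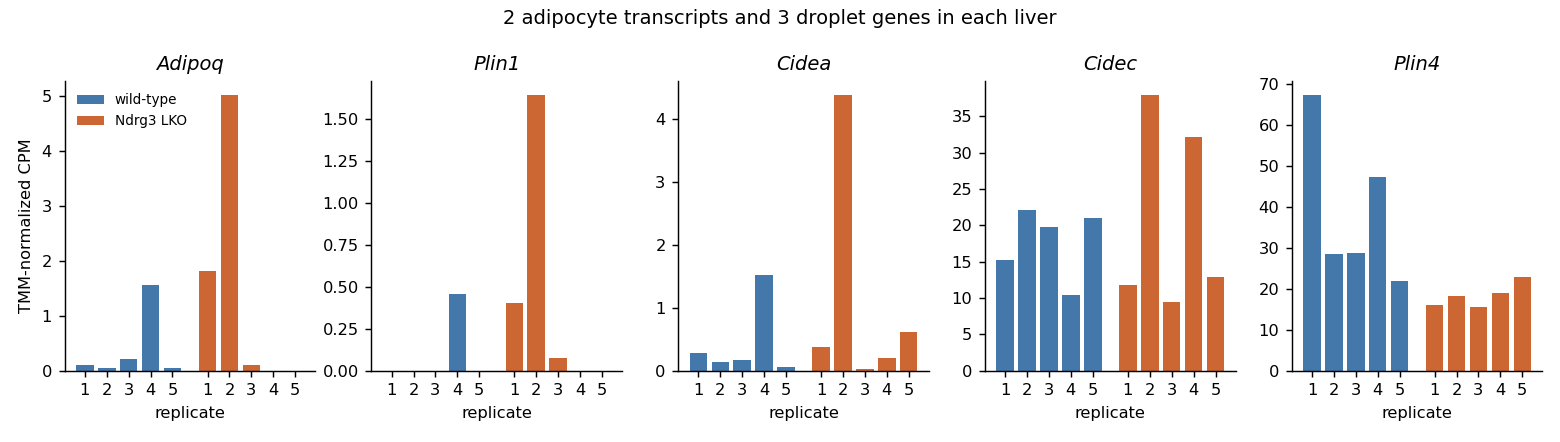
TMM-normalized CPM (bars, each axis from 0) of *Adipoq*, *Plin1*, *Cidea*, *Cidec* and *Plin4* in each liver, by replicate number. The bars of *Adipoq*, *Plin1* and *Cidea* are highest in Ndrg3 LKO replicate 2 (5.01, 1.65 and 4.38 CPM), whereas *Plin4* is highest in wild-type replicate 1 (67.3 CPM).

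Of the lipases, *Pnpla2* did not pass the test and *Pnpla3* was higher at a very low level. *Pnpla2* encodes ATGL, which removes the first fatty acid from triglyceride. It was at 163, 176, 133, 137 and 170.4 CPM in wild-type and 159, 248, 170, 213 and 132 CPM in Ndrg3 LKO livers. Ndrg3 LKO replicates 2 and 4 were above all wild-type livers and replicate 5 was just below them. The log2 fold change was 0.25 ± 0.18 (SE, 95% confidence interval -0.14 to 0.63, adjusted p = 0.27), and 0.33 without Ndrg3 LKO replicate 5 (adjusted p = 0.093). On the scale of library sizes alone it was 0.81 (adjusted p = 0.0086), while the median of all genes tested moved from 0.03 to 0.56 on that scale. Relative to the median of all genes, *Pnpla2* was 0.21 higher with TMM and 0.25 higher with library sizes, a closeness that follows from how scaling works.

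*Pnpla3* encodes a droplet-bound relative of ATGL that remodels the fatty acids of triglyceride. It had 7, 3, 0, 5 and 1 counts in wild-type livers and 22, 23, 21, 16 and 28 counts in Ndrg3 LKO livers. Every Ndrg3 LKO liver was above every wild-type liver, both in counts and in CPM (0 to 0.393 against 0.456 to 1.32 CPM), and wild-type replicates 2, 3 and 5 were at or under 3 counts. In all, 16 counts were seen in wild-type and 110 in Ndrg3 LKO livers. The difference of the means of log2(CPM + 0.1) was 1.71 (exact permutation test, 2-sided, p = 0.0079, the smallest this design can give, 0.024 after adjustment over the 3 genes below the filter). It was 1.49 without Ndrg3 LKO replicate 5 (exact permutation, adjusted p = 0.048). Without the 3 livers that hold adipocyte transcripts it was 1.92 (exact permutation p = 0.057, the smallest these fewer livers can give, adjusted p = 0.086). At these counts the level in wild-type livers is close to the floor, and with a pseudocount of 1 the difference was 0.53 (exact permutation, adjusted p = 0.024), so its size depends on the pseudocount.

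The acyltransferases of the last step moved in opposite directions. *Dgat1* encodes an enzyme of the endoplasmic reticulum that esterifies mainly incoming fatty acids. It was at 27.1, 31.1, 29.3, 28.3 and 31.6 CPM in wild-type and at 46.6, 36.4, 39.1, 54.3 and 46.2 CPM in Ndrg3 LKO livers. Every Ndrg3 LKO liver was above every wild-type liver. The mean rose from 29.5 ± 1.89 (SD, n = 5) to 44.5 ± 7.04 CPM (SD, n = 5). The log2 fold change was 0.60 ± 0.13 (SE, 95% confidence interval 0.32 to 0.87, adjusted p = 0.0025), or 1.51-fold, and 0.57 without Ndrg3 LKO replicate 5 (adjusted p = 0.0033). Over 18 other fits it lay between 0.52 and 1.12 with an adjusted p of at most 0.018.

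*Dgat2* encodes the other enzyme of this step, which shares no sequence ancestry with DGAT1 and uses mainly fatty acids made in the liver. It was at 718, 674, 662, 744 and 694 CPM in wild-type and at 400.5, 487, 528, 501 and 492 CPM in Ndrg3 LKO livers. The 5 wild-type livers spanned 1.12-fold, the least spread among the 10 genes, and every Ndrg3 LKO liver lay below them. The mean was 698 ± 32.9 CPM in wild-type (SD, n = 5) and 482 ± 48.0 CPM in Ndrg3 LKO livers (SD, n = 5). *Dgat2* fell by 0.53 on the log2 scale (SE 0.13, 95% confidence interval -0.82 to -0.25, adjusted p = 0.0058). Its log2 fold change without Ndrg3 LKO replicate 5 was -0.55 (adjusted p = 0.0033).

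The fall of *Dgat2* rests on the scaling between libraries. On library sizes alone the log2 fold change was -0.00 (adjusted p = 0.98), and after quantile normalization with limma it was -0.21 (adjusted p = 0.31). The median of all genes was 0.56 on the scale of library sizes, and 85.3% of the genes called there were higher against 52.6% with TMM. When the median of all genes is subtracted, *Dgat2* had the same value of -0.57 under both scalings and *Dgat1* the same value of 0.56. A change of scaling moves most genes by a similar amount, so such equal values cannot decide between the scalings. Without the 3 livers that hold adipocyte transcripts, 1 of the 7 genes was still called, *Dgat1*, against 31.9% of all genes tested. There the log2 fold change of *Dgat2* was -0.44 (adjusted p = 0.075).

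*Mogat1* encodes an acyltransferase that builds diacylglycerol from monoacylglycerol and is low in healthy liver. It had 6, 12, 15, 17 and 6 counts in wild-type and 20, 18, 9, 11 and 5 counts in Ndrg3 LKO livers. In CPM the ranges overlapped, at 0.337 to 0.836 and 0.231 to 0.575 CPM, and 3 Ndrg3 LKO livers were below the lowest wild-type liver. The difference of the means of log2(CPM + 0.1) was -0.55 (exact permutation test, 2-sided, p = 0.10, adjusted p = 0.16).

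**Figure D3:**
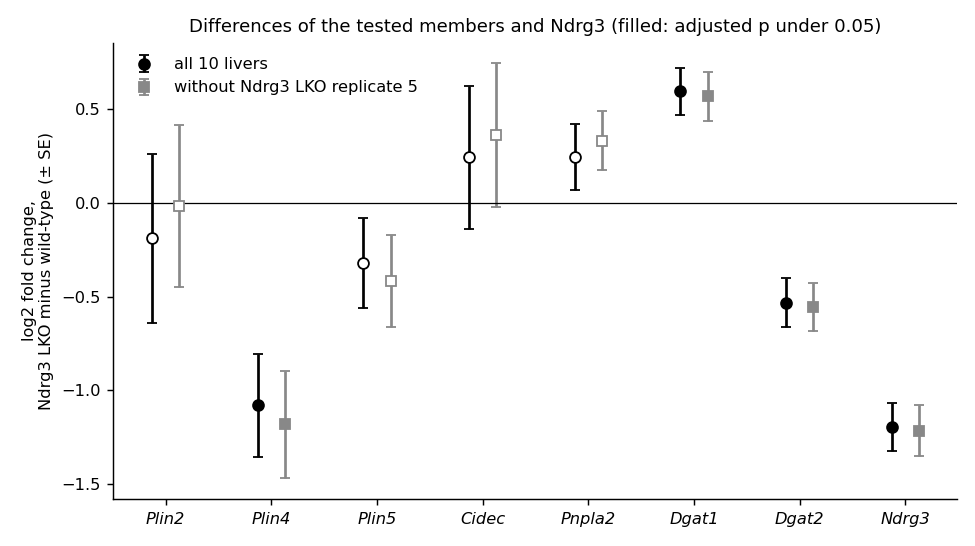
Log2 fold change (Ndrg3 LKO minus wild-type, ± SE) of the 7 tested genes and *Ndrg3*, with all 10 livers (circles) and without Ndrg3 LKO replicate 5 (squares). Filled symbols have an adjusted p under 0.05: *Plin4*, *Dgat2* and *Ndrg3* below 0 and *Dgat1* above 0, in both fits.

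*Dgat1* and *Dgat2* were the 2 of 7 tested genes whose groups did not overlap, and 31.5% of all genes tested had groups that did not overlap. Without Ndrg3 LKO replicate 5 the same number of the 10 genes, 3, was called, against 55.6% of all 11446 genes tested in that fit.

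Ratios of 2 genes within a liver do not depend on how libraries are scaled, and 5 of them were compared. The ratio of *Dgat2* to *Dgat1* counts was 26.5, 21.7, 22.6, 26.3 and 22.0 in wild-type and 8.60, 13.4, 13.5, 9.23 and 10.6 in Ndrg3 LKO livers. The groups were well apart, with the lowest wild-type ratio 21.7 and the highest Ndrg3 LKO ratio 13.5. The mean log2 ratio was 4.57 ± 0.14 (SD, n = 5) and 3.44 ± 0.30 (SD, n = 5), a difference of -1.12 (exact permutation test, 2-sided, p = 0.0079, the smallest this design can give, 0.040 after adjustment over the 5 ratios). Without Ndrg3 LKO replicate 5 the difference was -1.11 (exact permutation p = 0.016). Without any 1 liver the adjusted p was between 0.040 and 0.079, and 0.016 is the smallest p that 4 against 5 livers can give.

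The ratio of *Pnpla3* to *Pnpla2* was higher in Ndrg3 LKO livers by 2.08 on the log2 scale, with 0.5 added to each count (exact permutation p = 0.024, adjusted p = 0.060). The median ratio was 0.000835 in wild-type and 0.00318 in Ndrg3 LKO livers, so *Pnpla3* stayed a minor transcript beside *Pnpla2* in both groups. With 5 added to each count the difference was 0.74 (exact permutation, adjusted p = 0.30), so its size depends on how low counts are treated. Leaving out each liver in turn gave 1.56 to 2.47, with an adjusted p of 0.040 without wild-type replicate 1 and of 0.079 to 0.12 without any of the other 9. For *Plin4* to *Plin2* the ratio lay between 0.0145 and 0.151 in wild-type and between 0.0125 and 0.0585 in Ndrg3 LKO livers, and the difference was -0.78 (exact permutation p = 0.33). For *Plin5* to *Plin2* it lay between 0.154 and 0.569 and between 0.162 and 0.652 (difference -0.15, exact permutation p = 0.81). *Cidec* to *Cideb*, the CIDE gene of hepatocytes, ranged from 0.226 to 0.477 and from 0.162 to 0.736 (difference -0.06, exact permutation p = 0.98).

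**Figure D4:**
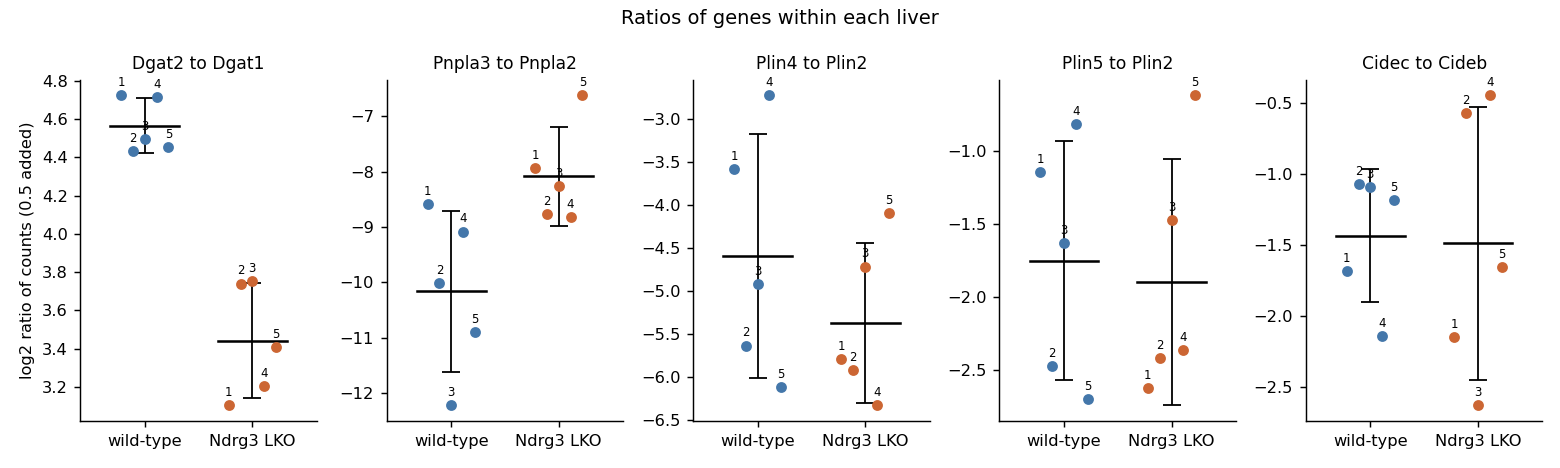
Log2 ratio of counts (0.5 added to each) of 5 gene pairs in every liver, with the group mean and ± SD. For *Dgat2* to *Dgat1* the 5 wild-type livers lie above the 5 Ndrg3 LKO livers, and for *Plin4* to *Plin2*, *Plin5* to *Plin2* and *Cidec* to *Cideb* the groups overlap.

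Other genes of the pathway were followed in 4 lists of 38 genes, of which 36 were tested. In them 16 were called, 5 higher and 11 lower, or 44.4% against 48.6% of all genes. Among the 5 is *Agpat4*, which passed the filter on low values through the Ndrg3 LKO livers. The median log2 fold change was -0.20.

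Of 9 tested coat and assembly genes outside the set, *Plin3* was called higher, and *Fitm1*, *Bscl2* and *Rab18* were called lower. On library sizes alone *Bscl2* was at -0.09 (adjusted p = 0.66) and *Rab18* at -0.07 (adjusted p = 0.67), while *Plin3* and *Fitm1* kept their calls. The median log2 fold change of the list was 0.13, and 2 of its genes were called without wild-type replicate 2, 3 or 5 or Ndrg3 LKO replicate 2 or 4. *Fitm1*, an endoplasmic reticulum protein that helps droplets to form, showed the largest difference of the list. It was at 23.8, 27.2, 28.8, 19.9 and 23.5 CPM in wild-type and at 8.93, 4.02, 4.68, 6.87 and 6.18 CPM in Ndrg3 LKO livers, with no overlap. *Fitm1* fell by 2.003 on the log2 scale (SE 0.21, adjusted p = 3.5e-05). *Fitm2*, in the same list, was not called (log2 fold change -0.185 ± 0.23, SE, adjusted p = 0.54). *Plin3*, a perilipin that also occurs free in the cytosol, was at 21.8 to 33.3 CPM in wild-type and 31.3 to 42.2 CPM in Ndrg3 LKO livers, which overlapped. Its log2 fold change was 0.42 ± 0.15 (SE, adjusted p = 0.035), and the adjusted p was between 0.076 and 0.10 without wild-type replicate 2, 3 or 5 or Ndrg3 LKO replicate 2 or 4. *Bscl2*, named with its value in view, lost its call without any of the same 5 livers or Ndrg3 LKO replicate 3 (adjusted p between 0.062 and 0.091). Without Ndrg3 LKO replicate 5, *Bscl2* was at -0.75 (adjusted p = 0.0059), and *Hsd17b11* was called at 1.065 (adjusted p = 0.0069). *Cideb*, which acts in the loading of lipoproteins, had a log2 fold change of 0.13 ± 0.13 (SE, adjusted p = 0.41), and of 0.68 on library sizes alone (adjusted p = 0.0077), where the median of all genes was 0.56. *Plin1*, the perilipin of fat cells, was at 0 in 4 wild-type and 2 Ndrg3 LKO livers, and its counts were 10 in wild-type replicate 4 and 14, 68 and 3 in Ndrg3 LKO replicates 1 to 3.

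All 5 genes of the lipolysis list were tested, and the 3 called ones, *G0s2*, *Lipe* and *Mgll*, were lower. The median of the list was -0.71. G0S2 is the inhibitor of ATGL. *G0s2* was at 692, 607, 618, 251.6 and 738 CPM in wild-type and at 114, 46.9, 48.7, 64.3 and 130.2 CPM in Ndrg3 LKO livers, so that the highest Ndrg3 LKO liver lay below the lowest wild-type liver. It fell by 2.85 on the log2 scale (SE 0.37, adjusted p = 1.3e-04) and passed in all 18 other fits. *Abhd5*, the activator of ATGL, had a log2 fold change of -0.11 ± 0.15 (SE, adjusted p = 0.54). *Lipe*, hormone-sensitive lipase, was at a mean of 14.3 ± 4.29 CPM in wild-type (SD, n = 5) and 7.66 ± 1.61 CPM in Ndrg3 LKO livers (SD, n = 5). *Mgll*, monoglyceride lipase, was at 323 ± 35.4 and 197 ± 39.7 CPM (SD, n = 5 each). The choice of these examples was made with their values in view. On library sizes alone, 1 gene of this list was called.

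In the list of other triglyceride synthesis genes, 14 of 15 were tested. *Agpat1*, *Agpat4* and *Gpd1* were called higher, and *Agpat6* and *Agpat2* lower, with a median of 0.20. On library sizes alone *Agpat2* was at -0.20 (adjusted p = 0.28), while the others named kept their calls. Of this list 3 genes were called without wild-type replicate 3 or 5 or Ndrg3 LKO replicate 1 or 3, and 7 without Ndrg3 LKO replicate 5. Those called without replicate 5 but not with all livers were *Gyk* (0.54, adjusted p = 0.041) and *Agpat5* (-0.86, adjusted p = 0.0073). *Agpat4* lost its call without wild-type replicate 1 or 5 or Ndrg3 LKO replicate 1 (adjusted p between 0.051 and 0.055). It was near the filter, at 0.476 to 1.11 CPM in wild-type and 1.04 to 1.64 CPM in Ndrg3 LKO livers. It passed the filter through the group where it was higher, so its call only describes these livers. *Gpd1* lost its call without wild-type replicate 3 or 4 or Ndrg3 LKO replicate 2 or 3 (adjusted p between 0.050 and 0.056). Without Ndrg3 LKO replicate 5, *Gpd1* was at 0.98 (adjusted p = 1.8e-04). *Agpat1*, an enzyme that makes phosphatidic acid, was at 12.4, 9.63, 7.19, 12.5 and 7.86 CPM in wild-type and at 18.6, 22.4, 21.9, 20.3 and 16.8 CPM in Ndrg3 LKO livers. Every Ndrg3 LKO liver was above the wild-type range, and the log2 fold change was 1.01 ± 0.18 (SE, adjusted p = 7.7e-04). *Agpat6*, now called *Gpat4*, encodes an acyltransferase of the first step. It was at 333 to 604 CPM in wild-type livers and at 175, 104, 106, 147 and 524 CPM in Ndrg3 LKO replicates 1 to 5. Ndrg3 LKO replicate 5 was within the wild-type range and the other 4 were below it. The log2 fold change was -1.20 ± 0.42 (SE, adjusted p = 0.033) with all livers and -1.88 (adjusted p = 4.0e-05) without replicate 5. The adjusted p was between 0.059 and 0.076 without wild-type replicate 2, 3 or 5 or Ndrg3 LKO replicate 1, 2, 3 or 4.

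All 8 regulators were tested. *Ppargc1a* was called higher, and *Ppara*, *Nr1h3* and *Creb3l3* were called lower, with a median of -0.34. On library sizes alone *Nr1h3* was at -0.11 (adjusted p = 0.42), while *Ppargc1a* and *Ppara* kept their calls. *Creb3l3*, named with its value in view, passed in 7 of 18 other fits, with a log2 fold change of -0.46 in the reported fit and 0.08 on library sizes alone, and its adjusted p was between 0.052 and 0.087 without wild-type replicate 1, 2 or 5 or Ndrg3 LKO replicate 1, 2 or 3. *Ppara* encodes the nuclear receptor that drives genes of fatty acid oxidation and of several droplet proteins. It was at 369, 363, 315, 331 and 297 CPM in wild-type and at 88.5, 132, 104, 110.5 and 158 CPM in Ndrg3 LKO livers, without overlap. *Ppara* fell by 1.498 on the log2 scale (SE 0.17, adjusted p = 4.8e-05). *Ppargc1a*, a coactivator of oxidative metabolism, was at 9.73 to 14.0 CPM in wild-type and at 57.9, 139.5, 113, 52.0 and 41.3 CPM in Ndrg3 LKO livers (log2 fold change 2.76 ± 0.33, SE, adjusted p = 7.0e-05). *Pparg*, which drives droplet genes in fat cells, was at 5.28 to 7.24 CPM in wild-type and 4.67 to 9.39 CPM in Ndrg3 LKO livers, and its log2 fold change was 0.21 ± 0.20 (SE, adjusted p = 0.38), or 0.75 on library sizes alone (adjusted p = 0.014).

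**Figure D5:**
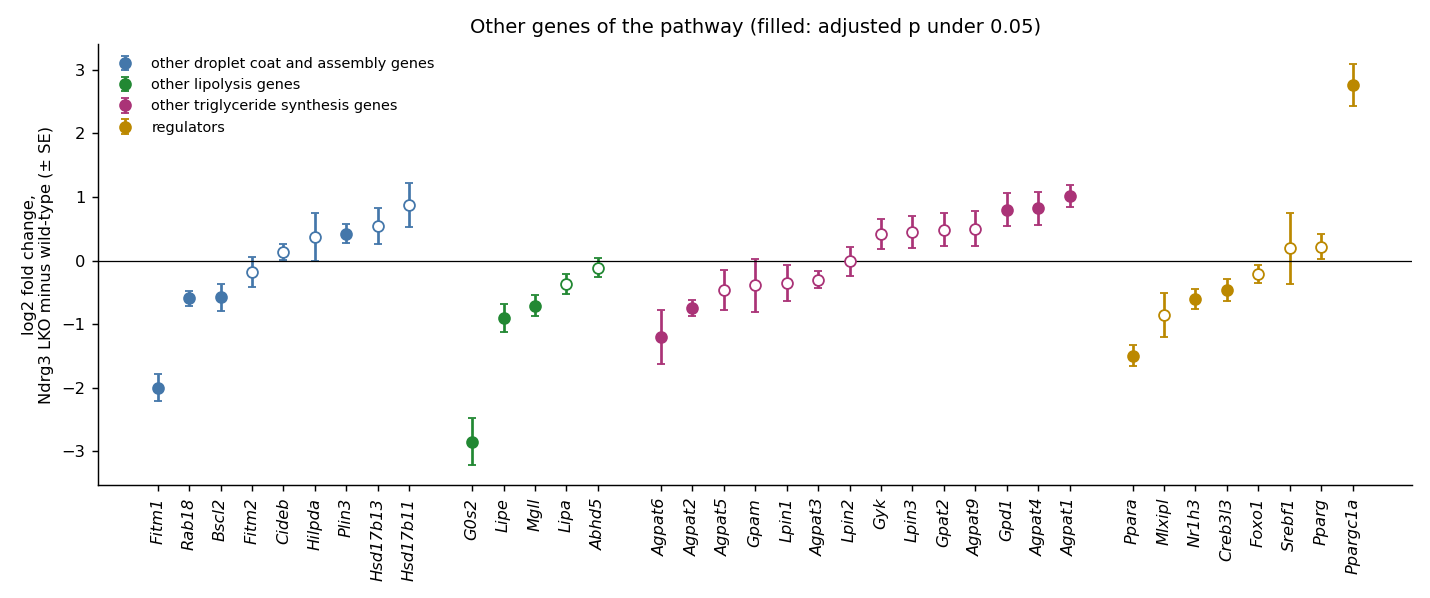
Log2 fold change (Ndrg3 LKO minus wild-type, ± SE) of the 36 tested genes of 4 lists, ordered within each list and filled where the adjusted p is under 0.05. *G0s2* lies lowest at -2.85 and *Ppargc1a* highest at 2.76, and 20 genes are open.

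For each tested gene of the set, the 1 other gene with the most similar pattern over the 10 livers was found, as the smallest mean absolute difference of centred log2(CPM + 1) among 11201 genes. This is a description of these livers, most of it the difference between the groups where that is large. It was *Srp72* for *Dgat2* (mean absolute difference 0.05), *Bnip1* for *Dgat1* (0.07), *Cdc42ep4* for *Pnpla2* (0.07) and *Mocs1* for *Plin4* (0.13). For the genes that varied within groups the nearest pattern was farther away. It was *Crat* for *Cidec* (0.17), *Egln1* for *Plin5* (0.19) and *Fgf21* for *Plin2* (0.26).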

How the data were processed

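The authors sequenced stranded mRNA libraries of 10 livers with paired-end reads of 100 bp, mapped them to mm9 with STAR and counted reads per gene (STAR 2.7.3a, Trim Galore 0.6.4 and Cufflinks 2.2.1 are in the submitters' processing notes, and the methods give another STAR version). The deposited values are raw counts per gene symbol, whole numbers not normalized by the authors, although named as CPM. The annotation and strand setting are not given in the sources used here. Labels give no batch.

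R 4.3.3 was used with edgeR 4.0.16, limma 3.58.1 and DESeq2 1.42.0. Simulated counts were used to check edgeR with and without a replicate block, DESeq2, and limma after quantile normalization. The other alternative fits were not checked in this way. The test was edgeR's quasi-likelihood test with TMM and Benjamini-Hochberg adjustment over all genes that reached 1 CPM in 5 livers, at 0.05. The filter was 4 livers where 1 liver was left out, and 3 where the 3 livers with adipocyte transcripts were left out. Standard errors and 95% intervals come from the edgeR fit. Genes below the filter and ratios were compared with exact permutation tests (scipy 1.17.1) over all splits of the livers. The floor of 3 counts covers counting error only, since reads without unique molecular tags need not be separate molecules. Whether the livers came from separate litters is not given. No 2 libraries of a group agreed within counting noise (chi-square per degree of freedom of at least 27.2 over 20 pairs). Genes were placed with GENCODE on mm9 (20945 of 24052 symbols found), and promoter sequences are from RefSeq on GRCm38.p6.

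The genes of the set, the lists and the tests were chosen with earlier results of these data known. Named were the 10 genes, *Ndrg3*, the called gene with the largest rise and that with the largest fall in each list, *Plin1*, *Plin3*, *Cideb*, *Abhd5*, *G0s2*, *Ppara* and *Pparg*, and the most similar gene of each tested one. Other genes given by name were chosen with their values in view. Alternatives were other scalings (median-of-ratios, library size, quantile with limma), no filter, a mean CPM of at least 5, DESeq2, a replicate block, other pseudocounts, each liver left out in turn and, added after seeing the data, the 3 livers with adipocyte transcripts (wild-type replicate 4, Ndrg3 LKO replicates 1 and 2) left out together.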

Additional observations from a re-analysis of the deposited data

Results flagged for a closer look

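In 52 groups of 5 livers checked, 7 had a highest or lowest liver separated from the nearest other by most of the group's range. About 1 in 20 would be so by chance if values were normally distributed. CPM near 0 need not be so distributed, and the groups share livers. *Cidea* was highest in wild-type replicate 4 (1.52 CPM, the next liver 0.281) and in Ndrg3 LKO replicate 2 (4.38 CPM, the next 0.613). *Plin1* was highest in the same livers, at 0.460 CPM where the other wild-type livers were at 0, and at 1.65 CPM where the next Ndrg3 LKO liver was at 0.402. These 4 flags fall in 2 livers that also held the most *Adipoq* of their groups. *Pnpla3* was highest in Ndrg3 LKO replicate 5 (1.32 CPM, the next 0.632), as was *Agpat6* (523.5 CPM, the next 175). *G0s2* was lowest in wild-type replicate 4 (251.6 CPM, the next 607). The cause of these values was not tested.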

How the results depend on the processing

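Of 431 tested values under alternatives, 374 kept their direction and their side of the threshold, and of 119 counts of called or non-overlapping genes, 101 stayed within 1.5 times the reported count. Library-size scaling reversed *Plin2* (0.41), *Plin5* (0.20) and *Abhd5* (0.44), lost *Plin4* (-0.58) and *Dgat2* (-0.004), added *Pnpla2* (0.81), *Cideb* (0.68) and *Pparg* (0.75), and moved the lipolysis and synthesis lists to 1 and 8 genes called. With 5 added to each count the ratio *Pnpla3* to *Pnpla2* was 0.74, and with a pseudocount of 1 the difference of *Pnpla3* was 0.53. Quantile normalization gave 0.32 for *Plin2* and -0.21 for *Dgat2*. Without the 3 livers that hold adipocyte transcripts, 1 gene of the set and 3593 of all genes were called, 2 each of the coat, synthesis and regulator lists. *Plin4* was then at -0.94, *Dgat2* at -0.44, *Cidec* at -0.10, *Pparg* at -0.031, *Pnpla3* at 1.92, and the ratios *Dgat2* to *Dgat1* at -1.07, *Plin4* to *Plin2* at 0.013 and *Plin5* to *Plin2* at 0.50. This fit also has fewer livers, and the cause of these changes was not tested. Leaving out each liver in turn gave -0.50 to 0.004 for *Plin2*, -0.088 to 0.43 for *Cidec*, -0.12 to 1.17 for *Cidea*, 2 to 5 coat genes and 3 to 7 synthesis genes called, and ratios of -1.20 to -1.04 for *Dgat2* to *Dgat1*, 1.56 to 2.47 for *Pnpla3* to *Pnpla2*, -0.47 to 0.086 for *Plin5* to *Plin2* and -0.32 to 0.23 for *Cidec* to *Cideb*.

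Both groups carry replicate numbers 1 to 5, but the labels do not say that a number marks a shared litter. The deviations of same-numbered livers correlated between -0.36 and 0.04, which cannot show whether those livers shared a litter. With the replicate block 3 genes of the set and 4412 of all genes were called, against 3 and 5443 without it, with 2 coat genes and 3 synthesis genes. With signs permuted within the 5 pairs, where 0.0625 is the smallest p, *Dgat2* to *Dgat1* stayed at -1.12 and *Pnpla3* at 1.71 without reaching the threshold.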
